A study of Mus musculus with 8 samples.

Results

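The mouse globin genes encode the chains of haemoglobin, the oxygen carrier of red cells. The report covers 7 of them, Hba-a1, Hba-a2, Hba-x, Hbb-bs, Hbb-bt, Hbb-bh1 and Hbb-y, in RNA-seq of embryonic mouse utricles, the inner ear organs that sense gravity and linear acceleration. They were taken by gene symbol from a list of 7 symbols, and all 7 were found among the 48823 gene identifiers of the count files. Embryos of 2 genotypes were compared: mice that carry 1 allele of Rest without exon 4 (4 libraries) and wild-type mice (4 libraries). Rest encodes a repressor of neuronal genes. Each library pooled RNA from the utricles of 7 to 9 mice. The labels give strain C57BL/6 and embryonic day E15.5 for 7 of the libraries. For wild-type replicate 4 they read C57BL/7 and E15.6. The labels name no Cre or promoter that would limit the deletion to a cell type. The titles of the heterozygous libraries call them knockouts, whereas the genotype label gives 1 altered allele. Nothing in the labels ties the libraries to separate litters, so the p-values measure the spread between these pools.

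Haemoglobin holds a pair of alpha-like and a pair of beta-like chains around haem, and its composition changes during development. In the mouse the first red cells, called primitive, come from the yolk sac and use the embryonic chains: the alpha-like Hba-x (zeta) and the beta-like Hbb-bh1 and Hbb-y (epsilon-y), the first of which is used earlier, together with some adult alpha chain. Definitive red cells, made in the fetal liver and later in the marrow, use Hba-a1 and Hba-a2 with Hbb-bs and Hbb-bt, and as they replace the primitive cells in the circulation the haemoglobin of the embryo switches from embryonic to adult. A utricle makes no red cells of its own, and globin RNA in it is usually read as a sign of blood left in the tissue.

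The total of read pairs on genes was 20365225 to 24557189 per library. All libraries expressed the markers of the organ: summed over 8 hair cell genes the level was 634 to 855 CPM (read pairs per 1000000 on genes, library sizes scaled by TMM), over 8 genes of supporting and roof cells 4614 to 5550 CPM, and none of these genes was at 0 in any library. Of the hair cell genes 1 of 8, Otof (otoferlin), passed the test between genotypes, both with and without wild-type replicate 4. Among all genes tested 1.17% passed with that library and 0.747% without it. Otof was at 71.6 to 93.9 CPM in heterozygous and 155 to 175 CPM in wild-type libraries. Rest itself was at 125 to 132 CPM in heterozygous and 106 to 122 CPM in wild-type libraries. It did not pass the test (edgeR adjusted p = 0.456, all libraries). Groups without overlap were found for 7.88% of all genes tested, in either direction. A count per gene does not test the loss of an exon. Wild-type replicate 4 stood apart from all other libraries in its globin level, and the authors' normalized table leaves it out. Each genotype comparison is therefore given with and without it.

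The beta-like genes lie together on chromosome 7 of GRCm38, on the minus strand: Hbb-y at 103851749 to 103853216, Hbb-bh1 at 103841637 to 103843164, Hbb-bs at 103826534 to 103828096 and Hbb-bt at 103812524 to 103813996. The alpha-like genes lie on the plus strand of chromosome 11: Hba-x at 32276400 to 32278116, Hba-a1 at 32283511 to 32284465 and Hba-a2 at 32296489 to 32297298. In both clusters the embryonic genes come first and the adult genes last in the direction of transcription. No other annotated gene (GENCODE M21) overlaps any of the 7. The counts are unstranded, and transcripts that the annotation lacks were not tested for. The adult genes are near-identical pairs. Over the 429 coding bases (stop codon included) Hba-a1 and Hba-a2 differ at 1 base (C381T, counted from the A of the start codon, with the base of Hba-a1 first), and over 444 coding bases Hbb-bs and Hbb-bt differ at 1 base (C417T, base of Hbb-bs first). By contrast, Hba-a1 shares 62.0% of coding bases with Hba-x, Hbb-bs shares 74.3% with Hbb-y and 74.1% with Hbb-bh1, and Hbb-bh1 and Hbb-y share 76.4%. The 30 coding bases at positions 205 to 234, shown because no stretch of that length differs at more positions (20) among the beta-like genes, read as follows, with those positions in capitals:
Hbb-bs: AtAacTGcCttTAACGATGGCCtGaaTCaC
Hbb-bt: AtAacTGcCttTAACGATGGCCtGaaTCaC
Hbb-bh1: CtGacATcCttGGGCTTGGGGGtTaaGAaC
Hbb-y: CtGacTGcTttTGGAGAGTCCAtTaaGAaT
The adult pair has the same letters here, while the embryonic genes differ from it and from each other. The only coding difference of the alpha pair is the last base, in capitals, of coding positions 352 to 381:
Hba-a1: ttcacccccgcggtgcatgcctctctggaC
Hba-a2: ttcacccccgcggtgcatgcctctctggaT

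This likeness bears on the counts, because reads that map to more than 1 place were counted for no gene. Of all windows of 126 bases, the read length, 50.5% in the Hba-a1 transcript and 67.6% in that of Hba-a2 occur in the other copy, as do 60.6% in Hbb-bs and 52.8% in Hbb-bt. In Hba-x, Hbb-bh1 and Hbb-y 0 windows occur in another gene's transcript. Adult globin counts are therefore too low relative to embryonic ones, and the split within each adult pair is uncertain. The windows stand for single reads, whereas the counts are of read pairs, which can be placed by either read. The shares therefore do not give the size of the loss and may overstate it. 

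The promoters are shown because the genes of a cluster are read from different ones. The RefSeq table (GRCm38.p6) held an entry for 6 of the 7 genes. The 120 bases before the annotated start of an adult beta, the main embryonic beta-like and an adult alpha gene, 5′ to 3′ in the direction of transcription, are given with the matches on the gene's strand to 4 short motifs (CACCC, the motif CCAAT, the motif ATATAA and the motif ATAAA) in capitals (Hbb-bs at chr7:103827929-103828048, Hbb-y at chr7:103853208-103853327, Hba-a2 at chr11:32296372-32296491):
Hbb-bs: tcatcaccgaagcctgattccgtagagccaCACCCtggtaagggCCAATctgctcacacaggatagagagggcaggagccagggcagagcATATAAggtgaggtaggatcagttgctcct
Hbb-y: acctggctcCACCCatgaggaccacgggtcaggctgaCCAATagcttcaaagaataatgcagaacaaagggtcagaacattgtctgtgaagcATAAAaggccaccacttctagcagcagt
Hba-a2: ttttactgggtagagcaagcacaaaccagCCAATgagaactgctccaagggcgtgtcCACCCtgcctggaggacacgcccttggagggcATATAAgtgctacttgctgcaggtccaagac
CACCC, the core of the site bound by the erythroid factor KLF1, began 90 bases before the start in Hbb-bs, 111 in Hbb-y and 63 in Hba-a2. In Hbb-bt it occurred at 104 and 89 bases and in Hba-x at 95. CCAAT began 76, 83 and 91 bases before the start in the 3 genes shown, and Hba-x had no such match in the window. Hbb-y had ATAAA at 28 bases in place of the ATATAA that Hbb-bs, Hbb-bt, Hba-a1, Hba-a2 and Hba-x have at 28 to 31 bases. These motifs are common: searched on both strands, CACCC was in 31.7%, CCAAT in 21.3%, ATAAA in 20.2% and ATATAA in 4.47% of 32851 promoter windows of the same length. ATATAA and ATAAA overlap in Hba-x and Hbb-bt. The 300 bases tabulated for Hba-a1 and Hba-a2 share an unbroken run of 297 identical bases.

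Of the 7 genes Hbb-bs, an adult beta chain gene, had the highest CPM in each of the 8 libraries. Hbb-bs was at 228, 160, 249 and 195 CPM in heterozygous replicates 1 to 4 and at 185, 153, 182 and 2142 CPM in wild-type replicates 1 to 4. Hbb-bt was at 196, 108, 196 and 162 CPM in the heterozygotes and at 160, 120.3, 142 and 1889 CPM in the wild types. For both genes wild-type replicate 4 was far above every other library, and the remaining libraries of the genotypes overlapped. The adult alpha chain genes also had their highest level in wild-type replicate 4. Hba-a1 was at 185, 133, 182 and 160 CPM in heterozygous and at 137, 126, 149 and 1320 CPM in wild-type libraries. Hba-a2 was at 104, 77.3, 107.0 and 95.3 CPM in heterozygous and at 81.1, 70.9, 88.2 and 748 CPM in wild-type libraries. Within each of these genes heterozygous replicate 2 was the lowest of its group and wild-type replicate 2 of its own.

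The embryonic genes differed more among the heterozygous libraries. Hbb-y was at 47.3, 12.2, 23.0 and 19.3 CPM in heterozygous replicates 1 to 4 and at 11.6, 7.57, 12.3 and 126 CPM in wild-type replicates 1 to 4. Hba-x, the alpha-like chain of primitive red cells, was at 29.7, 12.6, 18.5 and 12.0 CPM in the heterozygotes and at 8.63, 6.19, 11.8 and 79.3 CPM in the wild types. Wild-type replicate 4 was again the highest library for both, followed by heterozygous replicate 1. Without wild-type replicate 4 the groups did not overlap for Hba-x, with 12.0 CPM as the lowest heterozygous and 11.8 CPM as the highest wild-type value, a separation that 4.83% of all genes tested also had in this direction and 11.5% in either. For Hbb-y they overlapped by heterozygous replicate 2. Hbb-bh1, the earliest embryonic beta-like gene, was nearly silent, with 7, 2, 10 and 7 read pairs in the heterozygous and 5, 8, 7 and 61 in the wild-type libraries (0.0956 to 0.417 CPM outside wild-type replicate 4, and 2.96 CPM in it).

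**Figure D1:**
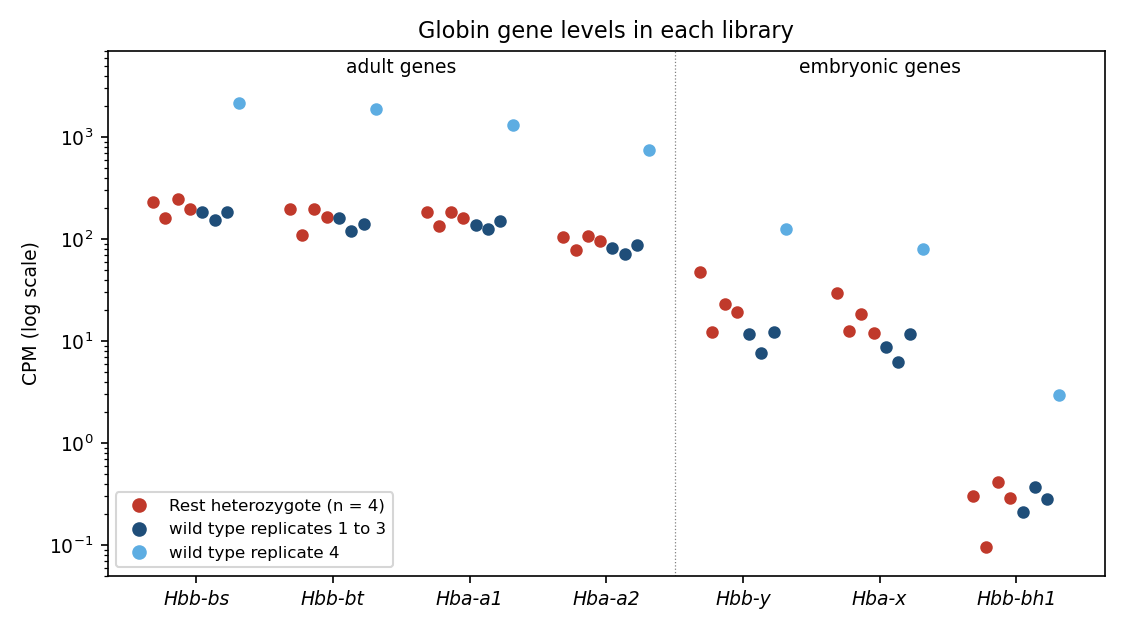
CPM (read pairs per 1000000 on genes, log scale) of the 7 globin genes, 1 point per library, with heterozygous libraries in red, wild-type replicates 1 to 3 in dark blue and wild-type replicate 4 in light blue. Wild-type replicate 4 is the highest library for all 7 genes, from 2.96 CPM for Hbb-bh1 to 2142 CPM for Hbb-bs.

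Per 1000 bases of annotated exon, and over the 7 libraries other than wild-type replicate 4, the levels ran from Hbb-bs (251 ± 45.2 CPM per kb, SD, n = 7) through Hbb-bt (220 ± 48.6), Hba-a1 (189 ± 29.0) and Hba-a2 (134 ± 20.4) to Hbb-y (30.1 ± 21.3), Hba-x (15.1 ± 8.35) and Hbb-bh1 (0.458 ± 0.171). The ranges over libraries overlapped between neighbours in this order except from Hba-a2 to Hbb-y and from Hba-x to Hbb-bh1. Within libraries the order was steadier: in 8 of 8 libraries each gene was above the next, except that Hbb-bt was above Hba-a1 in 7 of 8. The order among adult genes is uncertain because of the reads their copies share.

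The main question of the design is what the heterozygous Rest deletion does to expression in the utricle, and for the globins no difference between genotypes passed the test. With all libraries the changes on the log2 scale (heterozygote minus wild type, ± SE) were -1.68 ± 0.77 for Hbb-bs, -1.80 ± 0.81 for Hbb-bt, -1.39 ± 0.69 for Hba-a1, -1.36 ± 0.68 for Hba-a2, -0.62 ± 0.81 for Hbb-y and -0.54 ± 0.71 for Hba-x. The adjusted p (edgeR quasi-likelihood, Benjamini-Hochberg over 16990 genes) lay between 0.371 and 0.785. Of the 7 genes 6 passed the filter on low counts and were tested, 0 were called and 1, Hbb-bt, had an unadjusted p under 0.05 (0.0481). Among all genes tested 1.17% were called and 13.4% had such a p. Hbb-bh1 had too few reads to enter the test. DESeq2 gave a p to 1 of the 7 genes (Hbb-bh1, adjusted p = 0.331) and returned none for the other 6, and it called 2.95% of the genes to which it gave an adjusted p.

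Without wild-type replicate 4 all 6 changes had the opposite sign. The adult genes were then slightly higher in the heterozygotes, at 0.26 ± 0.14 for Hbb-bs, 0.24 ± 0.19 for Hbb-bt, 0.27 ± 0.12 for Hba-a1 and 0.26 ± 0.12 for Hba-a2. The embryonic genes were at 1.28 ± 0.39 for Hbb-y and 1.03 ± 0.33 for Hba-x (log2 change ± SE). The edgeR adjusted p were 0.245 for Hbb-y, 0.258 for Hba-x and 0.404 to 0.646 for the adult genes, so again 0 of 6 passed. The unadjusted edgeR p of Hbb-y was 0.00842 and that of Hba-x 0.0101. Those of the adult genes were 0.0508 for Hba-a1, 0.0609 for Hba-a2, 0.0972 for Hbb-bs and 0.234 for Hbb-bt. In this fit 12.4% of all genes had an unadjusted p under 0.05, with 0.747% called. The test on the reads of the authors' table, which holds the same 7 libraries, called 0 of the 7 globins, all of which entered it, and 0.594% of all genes. In CPM the heterozygous mean of Hbb-y was 2.42 times and that of Hba-x 2.05 times the mean of wild-type replicates 1 to 3 (25.4 ± 15.3, n = 4, against 10.5 ± 2.56, n = 3, and 18.2 ± 8.22 against 8.88 ± 2.82, SD). For the 4 adult genes this ratio was 1.18 to 1.20. For Hbb-bh1, the remaining embryonic gene, it was 0.953, on 2 to 10 read pairs per library.

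**Figure D2:**
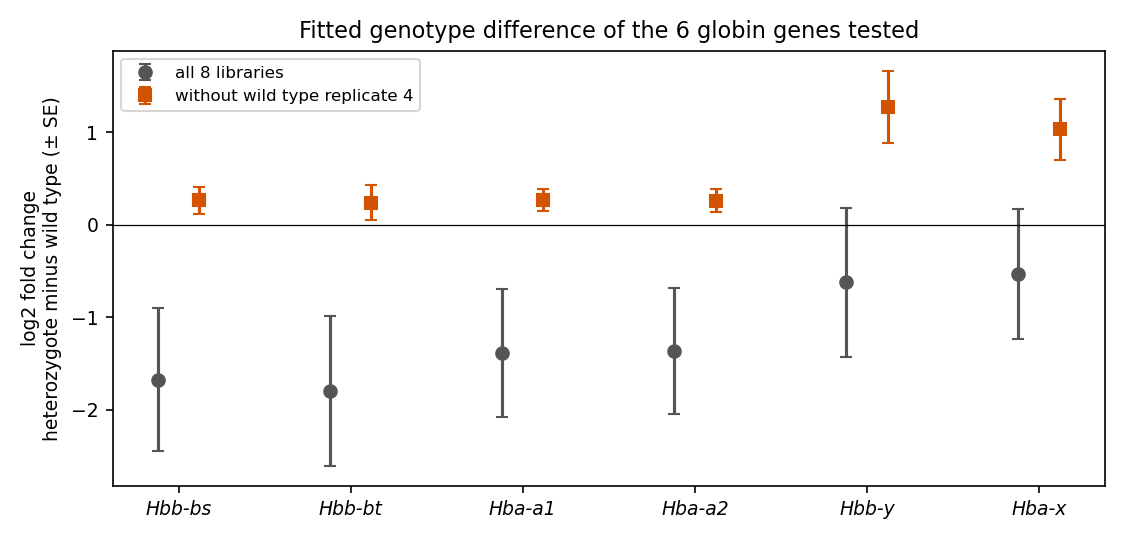
Fitted log2 fold change (heterozygote minus wild type, with SE) of the 6 globin genes that passed the filter on low counts, with all 8 libraries (grey circles) and without wild-type replicate 4 (orange squares). All 6 values are below 0 with that library and above 0 without it, and Hbb-y (1.28) and Hba-x (1.03) are the highest of the second fit.

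The balance of adult and embryonic chains was computed within each library from summed read pairs, so that library size does not enter it. The adult to embryonic beta globin ratio, Hbb-bs plus Hbb-bt over Hbb-y plus Hbb-bh1, was 8.90, 21.8, 19.0 and 18.3 in heterozygous replicates 1 to 4 and 29.2, 34.4, 25.6 and 31.3 in wild-type replicates 1 to 4. All 4 heterozygous libraries were below all 4 wild-type libraries, and heterozygous replicate 1 was the lowest by a wide margin. Wild-type replicate 4, with its many globin reads, lay within the range of the other wild types. The means were 17.0 ± 5.62 and 30.1 ± 3.68 (SD, n = 4 each), a log2 difference of -0.89. Without heterozygous replicate 1 the difference was -0.61, and without wild-type replicate 4 it was -0.87. The share of read pairs outside genes was 11.9% to 18.3% in heterozygous and 18.4% to 22.2% in wild-type libraries, and the number of genes with a read was 23408 to 23989 and 24265 to 24687, so these measures of library quality also separated the genotypes, and their part in the ratios was not tested. No p is given for the ratios, because they sum genes that were chosen with earlier results of these data known. Groups that do not overlap in CPM were found for 7.88% of all genes tested, in either direction.

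The alpha-like genes had the same direction with more overlap. The adult to embryonic alpha globin ratio, Hba-a1 plus Hba-a2 over Hba-x, was 9.73, 16.7, 15.59 and 21.3 in the heterozygous and 25.3, 31.8, 20.1 and 26.1 in the wild-type libraries. Heterozygous replicate 4 was above wild-type replicate 3, and the other libraries did not cross. The means were 15.8 ± 4.77 and 25.8 ± 4.79 (SD, n = 4 each), a log2 difference of -0.74, which was -0.52 without heterozygous replicate 1 and -0.73 without wild-type replicate 4.

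**Figure D3:**
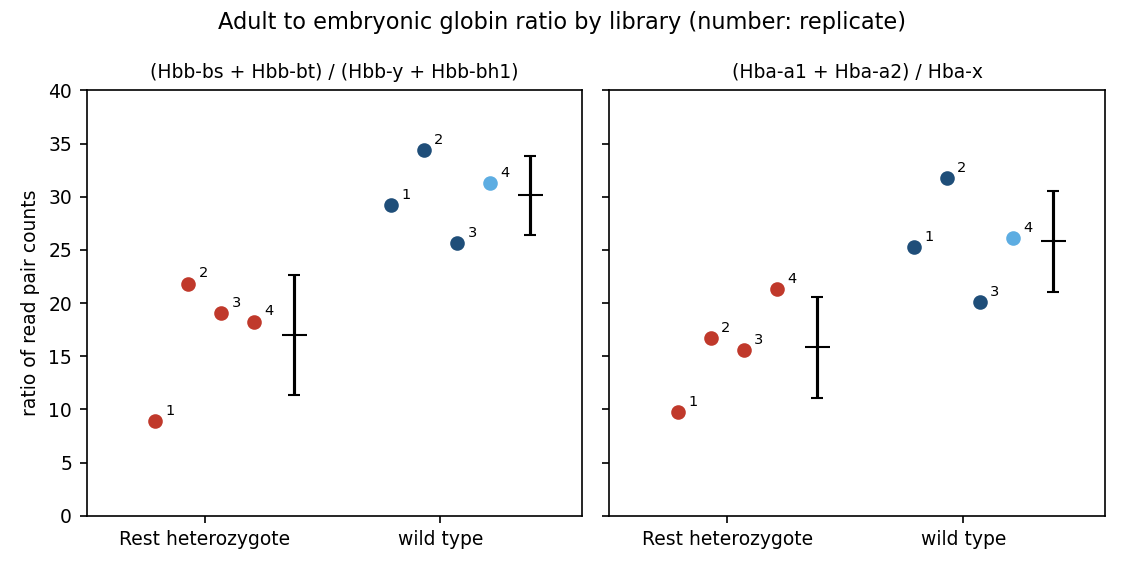
Ratio of adult to embryonic read pairs in each library for beta-like (left) and alpha-like (right) globins, with numbers giving the replicate, colours as in the plot of levels, and black marks giving the group mean with SD (n = 4). The beta ratios are 8.90 to 21.8 in heterozygous and 25.6 to 34.4 in wild-type libraries, while the alpha ratios overlap between 20.1 and 21.3.

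Seen as a share, embryonic genes made up 10.1% (95% exact Clopper-Pearson interval 9.54 to 10.7) of beta-like read pairs in heterozygous replicate 1, 4.38% (3.87 to 4.94) in replicate 2, 4.99% (4.60 to 5.41) in replicate 3 and 5.19% (4.75 to 5.66) in replicate 4. In the wild types the share was 3.31% (2.94 to 3.72), 2.83% (2.42 to 3.27), 3.75% (3.36 to 4.19) and 3.10% (2.98 to 3.21) in replicates 1 to 4. The intervals cover counting error only, since PCR copies are not independent molecules, and those of heterozygous replicate 2 and wild-type replicate 3 overlap. Hba-x made up 4.48% to 9.32% of alpha-like read pairs in the heterozygotes and 3.05% to 4.74% in the wild types. Among embryonic beta-like read pairs Hbb-bh1 made up 0.630% to 1.79% in the heterozygotes and 1.80% to 4.65% in the wild types. The groups did not overlap in this share, but it rests on 2 to 10 read pairs outside wild-type replicate 4. The intervals of heterozygous replicate 3 (0.860% to 3.26%) and wild-type replicate 1 (0.587% to 4.15%) overlap over most of their length, whereas that of heterozygous replicate 1 (0.254% to 1.29%) lies below those of wild-type replicates 2 (2.03% to 8.96%) and 4 (1.76% to 2.94%).

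Ratios between genes of the same stage overlapped between the genotypes. Hba-a1 over Hba-a2 was 1.68 to 1.78 in the heterozygous and 1.69 to 1.78 in the wild-type libraries, and Hbb-bs over Hbb-bt was 1.17 to 1.48 and 1.13 to 1.28. Hbb-y over Hba-x was 0.970 to 1.61 in heterozygous and 1.04 to 1.59 in wild-type libraries, so the embryonic genes of the clusters on chromosomes 7 and 11 kept within that span of each other while both varied between libraries. Summed alpha-like over summed beta-like read pairs was 0.656 to 0.795 in the heterozygotes and 0.635 to 0.741 in wild-type replicates 1 to 3. In wild-type replicate 4 it was 0.516, the lowest of all libraries, and the log2 difference between genotypes was 0.13 with that library and 0.02 without it.

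Levels of globin can also be read against genes that are particular to red cells. The 3 used were Alas2, the erythroid enzyme that starts haem synthesis, Slc4a1, the anion exchanger of the red cell membrane, and Hemgn, a nuclear protein of erythroid precursors. Their summed level was 25.6 to 38.8 CPM in heterozygous libraries, 26.8 to 30.2 CPM in wild-type replicates 1 to 3 and 421 CPM in wild-type replicate 4. Over the mean of wild-type replicates 1 to 3, that library was at 6.71-fold for Alas2, 27.5-fold for Slc4a1 and 141-fold for Hemgn. The makeup of the sum thus differs there, and a low value per marker in that library does not by itself mean less globin per red cell. Adult globin CPM per CPM of these genes was 18.4 to 20.2 in the heterozygotes, 17.5 to 20.8 in wild-type replicates 1 to 3 and 14.5 in wild-type replicate 4. Embryonic globin CPM per CPM of these genes was 1.99, 0.972, 1.154 and 1.01 in heterozygous replicates 1 to 4 and 0.756, 0.527, 0.809 and 0.494 in wild-type replicates 1 to 4. Against this sum the groups did not overlap for embryonic globins. For adult globins the heterozygotes lay inside the range of the wild types. The place of wild-type replicate 4 in both depends on which red cell genes are summed. Of all genes tested 7.88% had groups that did not overlap in CPM, in either direction. The embryonic values use the same reads as the adult to embryonic ratios, so they are not a separate result.

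**Figure D4:**
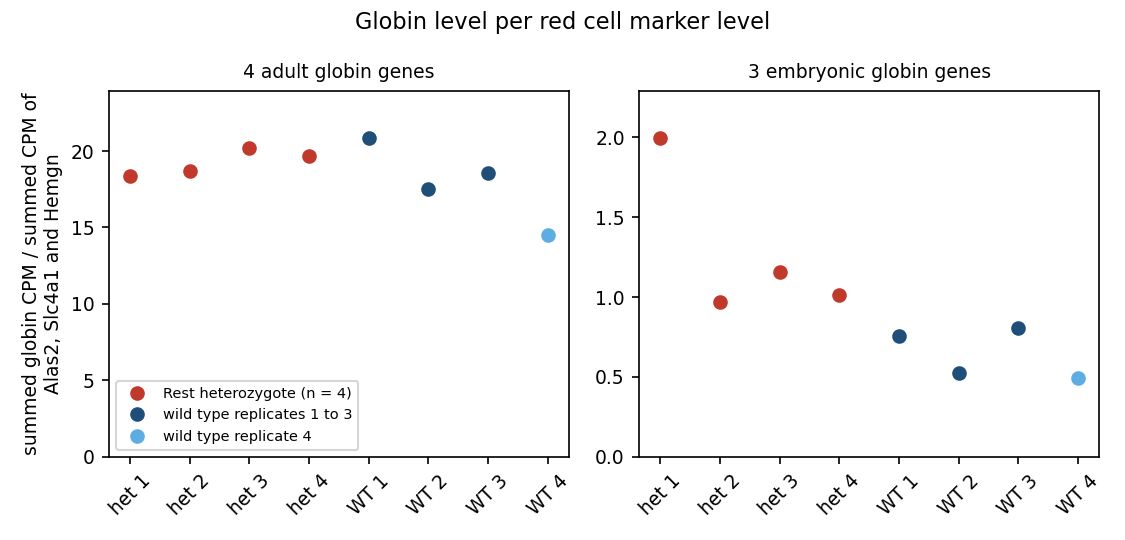
Summed CPM of the 4 adult (left) and 3 embryonic (right) globin genes divided by the summed CPM of Alas2, Slc4a1 and Hemgn, 1 point per library, colours as in the plot of levels. The adult values are 14.5 to 20.8 with the genotypes mixed, and the embryonic values are 0.972 to 1.99 in heterozygous and 0.494 to 0.809 in wild-type libraries. The values of wild-type replicate 4 depend on which red cell genes are summed.

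In bulk RNA, fewer cells of a type and less RNA per cell cannot be told apart, and neither can a change in globin use within red cells and a change in the mix of primitive and definitive cells. The age of the embryos sets that mix in normal development. Within the labels the heterozygous libraries all carry the age E15.5, as do 3 of the wild-type libraries, and differences in stage between pools of the same labelled day were not measured. Their part in the ratios was not tested.

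None of the genes tested from 5 further lists passed the test between genotypes. The lists were minor and non-erythroid globins, haem synthesis and iron supply, red cell cytosol, red cell membrane, and regulators of the globin switch and of erythroid cells. Many of their members are not particular to red cells, so the counts and medians below are not those of red cell genes alone. Some members, Kel and Pklr among them, did not pass the filter on low counts and were not tested. Of 89 genes tested 0 were called by edgeR, with or without wild-type replicate 4, against 1.17% and 0.747% of all genes. Unadjusted p under 0.05 were found for 18 of them with that library and 11 without it, against 13.4% and 12.4% of all genes. DESeq2 called 0 of the 72 to which it gave an adjusted p, against 2.95% of all genes. The median log2 change was -0.17 with all libraries and 0.07 without wild-type replicate 4, and that of all genes tested was -0.0027 and -0.0036.

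Among the regulators (32 of 34 tested, median log2 change -0.07) were the most highly expressed members Nfia, at 2453 to 3899 CPM in heterozygous and 2768 to 3255 CPM in wild-type libraries, and Igf2bp1, an RNA-binding protein gene of fetal tissue, at 309 to 498 and 339 to 361 CPM. Both are widely expressed outside red cells. Of the 32 regulators tested 0 were called. An unadjusted edgeR p under 0.05 was found for 9 with all libraries and for 5 without wild-type replicate 4. Among all genes tested 13.4% and 12.4% had such a p. The values of 4 further members, named for their known roles and after their levels had been seen, are these. Klf1, the factor that activates the adult beta globin gene, was at 0.813 to 1.42 CPM in the heterozygotes, at 0.935 to 1.34 CPM in wild-type replicates 1 to 3 and at 14.8 CPM in wild-type replicate 4. Gata1, the master factor of the red lineage, was at 0.209 to 0.815 CPM, 0.128 to 0.554 CPM and 11.9 CPM in the same libraries. Bcl11a, which silences embryonic beta-like genes in definitive cells and is also a neuronal gene, was at 56.6 to 78.2, 57.2 to 62.8 and 65.7 CPM. Sox6, which acts with it, was at 10.2 to 16.4, 16.3 to 18.7 and 17.6 CPM (edgeR adjusted p = 0.230). Levels of Klf1 and Gata1 were thus high in wild-type replicate 4 alone, while Bcl11a and Sox6 were not raised there.

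Wild-type replicate 4 held 0.639% of its read pairs on the 7 globin genes, against 0.0470% to 0.0787% in the other 7 libraries. Relative to the mean of wild-type replicates 1 to 3 its CPM was 9.62-fold for Hba-a1, 9.34-fold for Hba-a2, 8.93-fold for Hba-x, 12.4-fold for Hbb-bs, 13.4-fold for Hbb-bt, 10.3-fold for Hbb-bh1 and 12.0-fold for Hbb-y. Adult and embryonic genes were thus raised by like factors, and all 7 were more than 2-fold above every other library, which held for 0.683% of all genes tested. This is a description of 1 library, with no test. The share of read pairs that mapped to several places, where part of the adult globin reads would be, was 6.87% to 8.37% over all libraries.

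Other red cell genes were raised in this library by very different factors. In wild-type replicate 4 Alas2 reached 150 CPM, with 20.2 to 28.6 CPM in the remaining libraries, and Slc25a37 (mitoferrin), which brings iron into mitochondria for haem, at 156 against 27.6 to 37.95 CPM. Fech, the last enzyme of haem synthesis, was at 218 against 59.5 to 93.6 CPM and Cpox, an earlier one, at 23.2 against 4.42 to 7.46 CPM. Some genes of the membrane stood further above the remaining libraries: Slc4a1 was at 128 against 3.73 to 8.83 CPM, Rhd at 48.8 against 0.669 to 2.10 CPM, Epb42 (protein 4.2) at 20.1 against 0.209 to 0.859 CPM, Ermap at 23.6 against 0.508 to 1.12 CPM and Kel at 13.4 against 0 to 0.472 CPM. Hemgn was at 143 against 0.404 to 1.63 CPM and Trim10 at 52.0 against 1.40 to 3.47 CPM. Pklr, the pyruvate kinase of liver and red cells, had 145 read pairs against 0 to 1 in the other libraries. The median fold over wild-type replicates 1 to 3 was 10.8 for the globins tested, 1.49 for the haem and iron list, 3.45 for red cell cytosol and 2.51 for red cell membrane, and 0.996 for all genes tested. The ferritin gene Fth1 (909 against 754 to 947 CPM) and the membrane skeleton gene Tmod1 (427 against 345 to 462 CPM), which other cells also use, were within the range of the remaining libraries. Over the 15 membrane genes tested the fold ran from 0.877 to 41.4.

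The minor globins showed the same split. Hbq1b (theta 1B), in the alpha cluster, was at 5.62 CPM in wild-type replicate 4 and 0.614 to 0.860 CPM elsewhere. Cytoglobin (Cygb), a globin of fibroblast-like cells, was at 4.12 CPM there and 3.19 to 4.17 CPM elsewhere. Hbb-bh3, a pseudogene of the beta cluster, had no read in any library.

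Plasma protein genes of the liver and yolk sac, the organs that make blood in the embryo, were also present in wild-type replicate 4. Afp (alpha-fetoprotein) reached 1157 CPM, with 0 to 0.429 CPM in the remaining libraries, Alb (albumin) at 457 against 0 to 0.257 CPM, Ahsg at 101 against 0 to 0.0809 CPM and Fgb at 99.5 against 0 to 0.0478 CPM. The 18 genes of this list summed to 2794 CPM in that library and to 19.8 to 32.8 CPM in the others, and 17 of the 18 were highest in it. Leukocyte and platelet genes summed to 304 CPM there and 106 to 179 CPM elsewhere, with Lyz2, a lysozyme of myeloid cells, at 117 against 30.7 to 48.7 CPM. Of the 17 members of this list 9 were highest in that library, and of the 10 members tested 4 were. Elane, Mpo and S100a9, named for standing furthest above the other libraries, were at 18.1, 17.5 and 13.1 CPM in it. Elsewhere they were at 0 to 0.430, 0 to 0.600 and 0.0835 to 0.607 CPM. Elane and Mpo did not pass the filter on low counts and were not tested. The platelet gene Pf4 (58.4 against 29.0 to 62.3 CPM) was within the range of the others. Endothelial genes (366 CPM against 336 to 431) and macrophage genes (366 against 246 to 396 CPM) were within the range of the other libraries, as were the hair cell (813 against 634 to 855 CPM), supporting and roof cell (4725 against 4614 to 5550 CPM) and otic mesenchyme lists (4533 against 3616 to 5314 CPM). The part of liver RNA in the globin level of this library was not tested. In the other 7 libraries Afp and Alb were at or near 0, and the adult to embryonic ratios without wild-type replicate 4 are those given above.

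**Figure D5:**
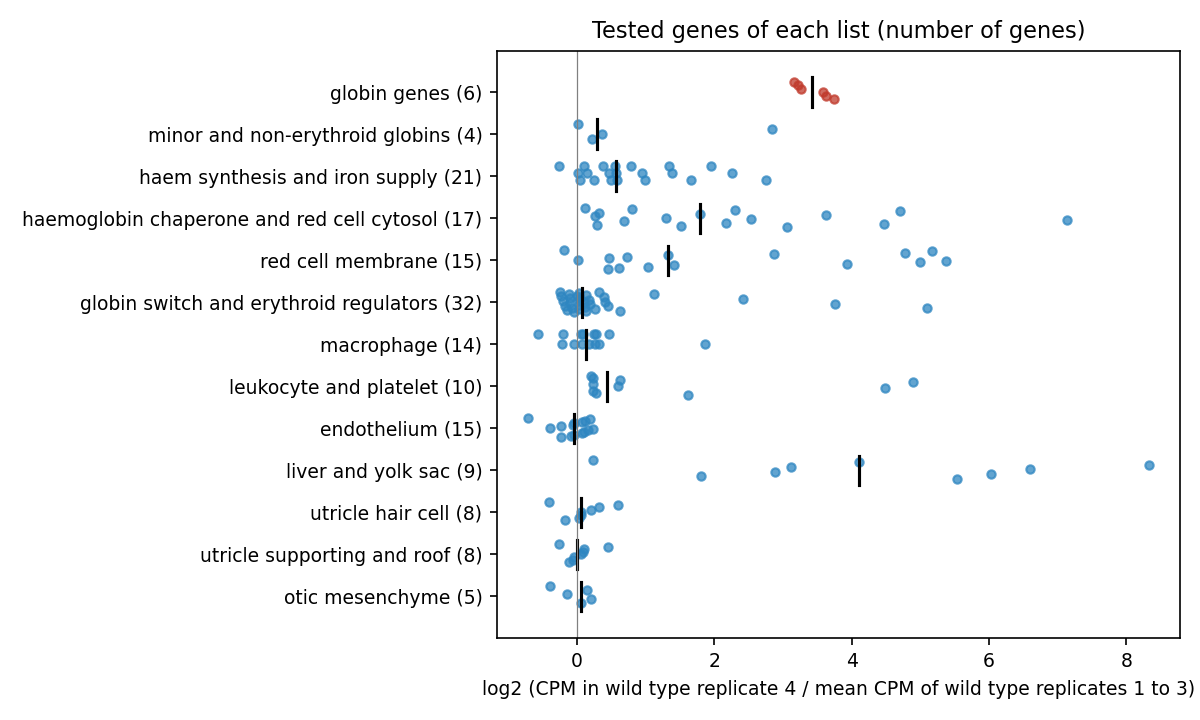
Log2 ratio of CPM in wild-type replicate 4 to the mean of wild-type replicates 1 to 3 for each tested gene of each list (points) with the list's median (black line) and the number of genes in brackets. The 6 globins tested lie close together at 8.93-fold to 13.4-fold, red cell and liver lists spread widely, and lists of the utricle's own cells centre near 0.

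Among the 5 genes most like Hbb-bs over all 8 libraries, by Pearson r of log2 CPM over 16984 other genes tested, were Ube2l6, a ubiquitin-like protein conjugating enzyme that is high in late red cell precursors (r = 0.999), Alas2 (0.994) and Slc4a1 (0.990). In wild-type replicate 4 Ube2l6 was at 151 CPM, and in the remaining libraries at 22.7 to 34.2 CPM. Over the 7 libraries without it the 5 most alike were Neu1 (r = 0.984), Tbc1d22b (0.976), Ncaph2 (0.974), Ube2l6 (0.972) and Mrpl12 (0.972), so Ube2l6 was among the 5 both times. The adult globins Hba-a1, Hba-a2 and Hbb-bt had r = 0.955, 0.960 and 0.948 with Hbb-bs over these libraries, against 0.837 for Hbb-y and 0.797 for Hba-x. For Hbb-y the most alike of the non-globin genes over these 7 libraries were Mboat2 (r = 0.994), Trmt61a (0.984), Daxx (0.984), Lsr (0.975) and Ip6k3 (0.974). Among the globins Hba-x had r = 0.952 with Hbb-y, Hba-a1 0.927, Hba-a2 0.882, Hbb-bs 0.837 and Hbb-bt 0.794. These are descriptions over 7 or 8 libraries that share depth and library preparation, picked from many genes.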

How the data were processed

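The submitters' processing notes name STAR 2.5.2a, the build GRCm38.p4 and DESeq2, whose version is not given in the sources used here. The authors deposited gene counts per library, whole read pairs that are not normalized. The unstranded column was used, since the ratio of the strand columns was 0.996 to 1.00. Lines that name no gene, multimapping reads included, made up 25.2% to 33.9% of read pairs and were left out. The authors also deposited a normalized signal, gene counts divided by a size factor per library, for 7 libraries without wild-type replicate 4. From it 100% of values came out as whole reads (tolerance 0.001). The count test on these reads, an alternative chosen after seeing the data, called 127 genes, DESeq2 548 and the edgeR test on all libraries 198. The table gave the gene names.

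Of 48823 gene identifiers 48349 were in GENCODE M21 (GRCm38). Genes kept by filterByExpr (minimum count 10, minimum total 15) were tested with edgeR 4.0.16 in R 4.3.3, with TMM factors, the quasi-likelihood test and Benjamini-Hochberg adjustment (threshold 0.05). SE is the log2 change divided by the square root of F. CPM used TMM-scaled library sizes, and log2 CPM a prior count of 2. On simulated counts for this comparison (16990 genes, 200 changed) 30% of genes changed 1.5-fold were recovered (8 false calls), 67.5% of those changed 2-fold (7 false calls) and 96% of those changed 4-fold (17 false calls). The changed genes were drawn at random from all tested genes with enough counts. These shares therefore do not give the recovery for the globins, whose SE with all libraries was 0.68 to 0.81 on the log2 scale.

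Members, lists and ratios were chosen with earlier results of these data known. Named genes are the 7 globins, the 2 most highly expressed members of each list, those past the threshold (up to 4), the 4 highest in wild-type replicate 4 relative to other libraries in the red cell and liver lists (at least 10 counts there), and the 5 most like Hbb-bs or Hbb-y, with exceptions as stated. Not all are described, and some genes are not reported here. Alternatives were DESeq2 1.42.0, other size factors, no filter, strand columns, a replicate block and leaving out each library.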

Additional observations from a re-analysis of the deposited data

Results flagged for a closer look

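Groups of 4 libraries were checked for a value whose gap to its nearest neighbour exceeds Dixon's 95% critical value as a share of the group's range, for the CPM of the 7 globins and the 3 ratios in each genotype. Chance alone gives about 5% of such checks. Of 20 checks 7 were positive, all of them CPM values of wild-type replicate 4: Hba-a1 at 1320 CPM (next highest wild type 149), Hba-a2 at 748 CPM (88.2), Hba-x at 79.3 CPM (11.8), Hbb-bs at 2142 CPM (185), Hbb-bt at 1889 CPM (160), Hbb-bh1 at 2.96 CPM (0.370) and Hbb-y at 126 CPM (12.3). The 7 genes are not independent of each other, and this library was known to be rich in blood RNA when the genes were chosen, so these values describe it and add no evidence that it stands apart. None of the 3 ratios was positive in either genotype.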

How the results depend on the processing

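The count of globin genes called between genotypes was 0 in the main analysis and in all 16 alternatives. DESeq2, 1 of these, gave an adjusted p to Hbb-bh1 only, so it could not call the other 6 globins. The sign of the fitted change depended on wild-type replicate 4. Leaving out 1 library at a time gave log2 changes from -1.69 to 0.27 for Hba-a1, -1.66 to 0.26 for Hba-a2, -0.88 to 1.03 for Hba-x, -1.999 to 0.26 for Hbb-bs, -2.13 to 0.24 for Hbb-bt and -1.11 to 1.28 for Hbb-y, and the positive value was the one without wild-type replicate 4 each time. In the reads recovered from the authors' table, which lacks that library, the changes were 0.28, 0.27, 1.05, 0.28, 0.25 and 1.29 in the same order. With the replicate number as a block, Hba-x was at 0.29 and Hbb-y at 0.34 (edgeR adjusted p = 0.900 and 0.888), the adult genes were at -0.57 to -0.44, and no call changed. The numbers share no stated litter or day, and deviations of same-numbered libraries correlated by -0.0983 to 0.0322 over genes, so they are not taken to pair the samples.

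Leaving out 1 library at a time, the log2 genotype difference was -1.04 to -0.61 for the beta ratio, -0.90 to -0.52 for the alpha ratio and 0.02 to 0.19 for alpha over beta. The beta ratio kept its direction in all alternatives except Hbb-bs over Hbb-bh1 alone (0.40), which rests on 2 to 61 read pairs. Alpha over beta from group mean CPM was 0.35, a mean that wild-type replicate 4 dominates. Counts per unshared window, added after seeing the data, moved the beta ratio to 19.9 to 49.8 in heterozygous and 57.8 to 77.4 in wild-type libraries, with a log2 difference of -0.89. The absolute ratio therefore depends on how shared reads are treated. Windows of single reads may overstate the loss of read pairs, so these values are not corrected ratios.

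The number of all genes called was 198 with edgeR, 548 with DESeq2, 96 with the block, 127 in the authors' table and 118 to 163 when any 1 library was left out (129 without wild-type replicate 4).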
